A study of Helianthus annuus with 180 samples.

Results

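Sunflower stems growing in the field were sampled over 2 consecutive days, and the second day is compared here with the first, gene by gene. The comparison uses 72 of the 180 libraries of the series, 36 of day 2 and 36 of day 1, chosen by their labelled time and not by any measured value. All plants were wild-type HA412-HO sunflowers (*Helianthus annuus*), an inbred line, raised in growth chambers, moved to the field as seedlings and used when 2 weeks old. Both days hold the same 6 times of day, 4 hours apart, written as ZT0 (dawn) to ZT20 (hours after dawn), and at each time the west and the east side of the stem were taken separately, giving 3 libraries of each kind, every one from the pooled peels of 2 plants. The tissue was a peel of the first internode, taken below the stem apex, and polyadenylated RNA was sequenced. No treatment separates the days. Weather, plant age, the plants harvested and the handling of the samples all go with the day, and their parts cannot be told apart with 1 field and 1 pair of days.

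A plant in the field meets light, temperature and humidity that repeat every day but never exactly. Many plant genes follow the circadian clock, an internal timer made of genes that repress each other in sequence, and time them to hours of the day. Other genes respond directly to bright light, heat, water loss, wounding or nutrient supply. Stems also age: elongating cells stop growing, the cuticle thickens and secondary walls are laid down. A comparison at matched times of day sets such changes apart from the daily rhythm itself.

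Library totals were lower on day 2, at 5074975 to 22637992 estimated counts (median 12707573), against 10586026 to 30834562 (median 19204457.5) on day 1. The 10 most abundant genes took 2.88% to 6.476% of a library. The spread between libraries of a group was wider on day 2, with a median standard deviation of 0.2803 on the log2 scale over the 34315 genes tested, against 0.2263 on day 1. A west library of day 2 at ZT20 (library 3) stood apart on the fourth principal component, at 118.6, where the others lay between -39.2 and 45.9. It also had the lowest total, 5074975 counts, and the next lowest was an east library of day 2 at ZT0 (library 3), with 5666935 counts. West and east libraries with the same number deviated together from their group means (correlations of 0.037 to 0.395 over 36 pairs, median 0.171). Those with different numbers had correlations of -0.327 to 0.067 (median -0.084). Deviations from a group mean cancel within the group, so these lower values follow largely from the first and are not a separate observation. By the study's methods both sides were peeled from the same 6 plants of a time point. The 6 libraries of a time and day are therefore not 6 independent samples, and counts from a fit in which west and east counts were summed, 3 samples against 3, stand beside the main ones. Nothing states that the plant pools came from separate plots, so p-values measure the spread between these pools.

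In a model with 1 day term common to all sides and times, 5967 of 34315 genes (17.4%) differed between the days. The threshold was an adjusted p under 0.05 (edgeR quasi-likelihood F test, Benjamini-Hochberg adjustment). Of the genes tested, 2841 were higher (8.28%) and 3126 lower (9.11%) on day 2. The mean of the day differences of the 12 combinations of side and time, a separate fit, called 6644 genes, 3087 higher and 3557 lower. The summed fit called 3505 genes (10.2%), 1758 higher and 1747 lower. RLE scaling, another normalisation to library size, gave 3065 higher and 2760 lower. Most differences were small: the median size among called genes was 0.23 on the log2 scale, and 167 genes were at least 2-fold higher and 56 at least 2-fold lower (0.650% of genes). Of the genes called, 510 had the same sign of the day difference in all 12 combinations of side and time (1.49% of the genes tested), 257 higher and 253 lower. The day term took a median of 0.9858% of a gene's variance and the product of day and time of day 5.175%, beside 43.08% for time of day and 0.4154% for side. The residual took 34.6%, with 48 degrees of freedom. Day and side have 1 degree of freedom each, and time of day and its product with day have 5 each. A term with more degrees of freedom takes up more noise, so the 0.9858% and the 5.175% cannot be compared directly.

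Among genes that averaged 10 CPM or more and had 1 sign throughout, the largest increase was that of Ha412HOChr15g0719941, for which the tables used here give no Arabidopsis homolog. At ZT0 it had 11.08 to 27.42 CPM (median 23.23, CPM being counts scaled to library size) on day 2, against 3.064 to 5.607 CPM (median 4.257) on day 1. At ZT20 it had 31.16 to 64.28 CPM (median 41.64) on day 2, against 9.991 to 17.55 CPM (median 14.64) on day 1. The 6 libraries of day 2 lay above all 6 of day 1 at 5 of the 6 times, and overlapped them at ZT16, where day 2 had 11.29 to 24.88 CPM and day 1 had 6.822 to 20.25 CPM. The overall difference was 1.57 ± 0.12 on the log2 scale (SE, adjusted p = 1.06e-14, edgeR).

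Among genes with a named homolog, Ha412HOChr05g0201141 increased most. Its homolog AT3G12900 encodes scopoletin 8-hydroxylase in Arabidopsis, an enzyme of coumarin synthesis. The gene was highest at night, with 18.01 to 62.74 CPM (median 49.66) at ZT20 of day 2, against 10.22 to 23.3 CPM (median 15.42) on day 1, where the ranges overlapped. At ZT0 the groups did not overlap, with 16.43 to 20.63 CPM (median 18.13) on day 2 and 3.241 to 6.229 CPM (median 4.845) on day 1. Its overall log2 difference was 1.33 ± 0.13 (adjusted p = 8.19e-12, edgeR).

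Several further increases were in transporter genes. Ha412HOChr13g0614631, homolog of the urea transporter DUR3, had 9.986 to 22.84 CPM (median 18.94) at ZT8 of day 2, against 3.94 to 7.861 CPM (median 5.518) on day 1, with an overall log2 difference of 0.90 ± 0.11 (adjusted p = 6.63e-09, edgeR). Ha412HOChr01g0012271, of the EamA-like transporter family, had 40.75 to 79.55 CPM (median 49.13) at ZT12 of day 2, against 21.9 to 29.12 CPM (median 23.38) on day 1. Ha412HOChr16g0747671, homolog of SWEET11, a sucrose exporter that loads the phloem in Arabidopsis leaves, had 64.94 to 105.8 CPM (median 71.97) at ZT12 of day 2, against 32.51 to 50.89 CPM (median 44.76) on day 1. In these 3 genes the groups did not overlap at the time given. The overall log2 difference was 0.76 ± 0.08 for the EamA-like gene and 0.67 ± 0.09 for the SWEET11 homolog.

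Vacuolar, receptor and metabolic genes completed the list of increases. Ha412HOChr07g0293641, homolog of GAMMA-VPE, a vacuolar protease that processes other proteins and acts in cell death, had 151.7 to 285.4 CPM (median 193.9) at ZT12 of day 2, against 78.31 to 138.4 CPM (median 105.6) on day 1. The groups of this gene did not overlap from ZT0 to ZT12, and its overall log2 difference was 0.73 ± 0.08 (adjusted p = 6.52e-11, edgeR). Ha412HOChr10g0442621, homolog of WAK2, a receptor kinase that binds pectin in the cell wall, had an overall log2 difference of 0.62 ± 0.07. The others were a leucine-rich repeat receptor kinase (Ha412HOChr11g0488251, 0.64 ± 0.07), an oxygenase (Ha412HOChr03g0142521, 0.73 ± 0.09), a chalcone-flavanone isomerase family member (Ha412HOChr09g0397981, 0.67 ± 0.08) and a membrane protein of unknown function (Ha412HOChr16g0747761, 0.64 ± 0.09). At ZT16 none of the 11 genes passed the test, with log2 differences of 0.13 to 0.71.

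Under the same conditions the largest decrease was that of Ha412HOChr08g0358261, homolog of RNS2, a ribonuclease that turns over ribosomal RNA in the vacuole. It had 131.5 to 203.4 CPM (median 165) at ZT4 of day 2, against 288.4 to 605.9 CPM (median 447.3) on day 1, with no overlap. At ZT20 it had 28.79 to 220 CPM (median 53.56) on day 2, against 190.3 to 356.8 CPM (median 274.7) on day 1, where the ranges overlapped. Its overall log2 difference was -1.04 ± 0.12 (adjusted p = 1.5e-09, edgeR).

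The other decreases named under these conditions were under 2-fold. Several of these genes act in the cell wall: Ha412HOChr12g0569111 (LAC17 homolog, -0.61 ± 0.13), whose homolog polymerises lignin, Ha412HOChr07g0291931 (pectin lyase-like, -0.44 ± 0.09), Ha412HOChr15g0715451 (XTH9 homolog, -0.43 ± 0.08), of the enzymes that cut and rejoin xyloglucan, and Ha412HOChr04g0169241 (GLP10 homolog, -0.37 ± 0.06), a germin-like protein. The aquaporin gene Ha412HOChr14g0679901 (PIP2;4 homolog) had an overall log2 difference of -0.58 ± 0.11. Its level varied widely over the day. Its groups did not overlap at ZT0, where the test was not passed (adjusted p = 0.159, edgeR) and it had 77.06 to 114.9 CPM on day 2 and 119 to 147.4 CPM on day 1, nor at ZT20, where it had 3.555 to 10.69 CPM on day 2 and 11.94 to 22.49 CPM on day 1. Ha412HOChr01g0037001, homolog of the auxin response repressor IAA13, had a log2 difference of -0.38 ± 0.07. The remaining members were Ha412HOChr04g0150121 (a putative thiol peptidase, -0.51 ± 0.06), Ha412HOChr10g0457701 (PAB2 homolog, a poly(A)-binding protein, -0.39 ± 0.05) and Ha412HOChr03g0094331 (a protein phosphatase 2C, -0.39 ± 0.08). These overall calls, higher and lower, held in the summed fit.

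**Figure D1:**
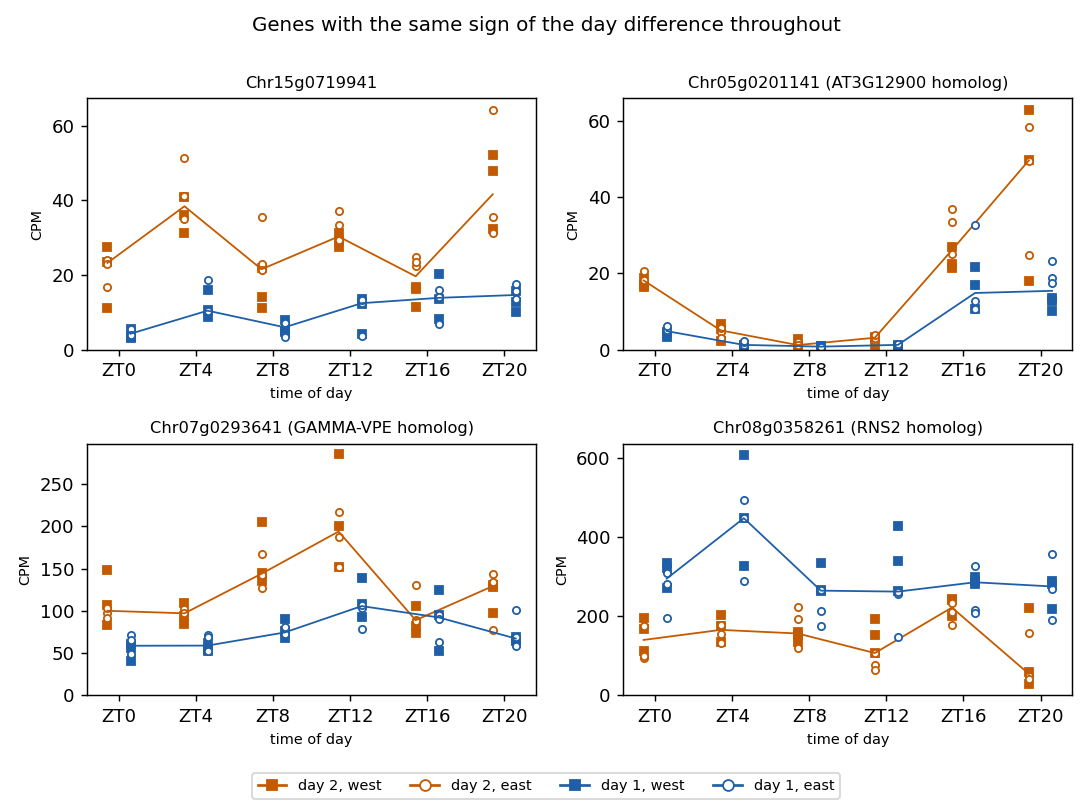
CPM of 4 genes with the same sign of the day difference in all 12 combinations of side and time, by time of day (linear axes), with 1 point per library (squares west, circles east) and lines through the medians, day 2 in orange left of day 1 in blue. The first 3 genes were higher on day 2 and the RNS2 homolog was lower, and the days come closest at ZT16.

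Cuticle genes were higher on day 2. The cuticle is the wax and cutin layer that epidermal cells secrete, and of 28 measured members of the epidermis and cuticle list 12 rose and 2 fell (50% called, median log2 difference 0.17, against 17.4% and -0.01 over all genes). In the summed fit 10 rose and 2 fell. Ha412HOChr15g0716271, homolog of KCS1, which elongates fatty acids for wax, had 138.7 to 170.7 CPM (median 154.7) at ZT0 of day 2, against 85.6 to 108.4 CPM (median 90.27) on day 1. At ZT12 it had 92.23 to 111.2 CPM (median 101.2) on day 2, against 39.65 to 69.92 CPM (median 60.55) on day 1. The groups did not overlap at either time, and the overall log2 difference was 0.49 ± 0.06 (adjusted p = 3.63e-08, edgeR).

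Other wax and cutin genes moved with it. A second KCS1 homolog, Ha412HOChr04g0188471, rose by 0.42 ± 0.06, and Ha412HOChr10g0468801, homolog of KCS10 (FIDDLEHEAD), by 0.34 ± 0.05. Ha412HOChr15g0724491, homolog of CER6, which makes very long fatty acids for wax, had a log2 difference of 0.35 ± 0.06, and Ha412HOChr13g0586711, homolog of the alkane-forming enzyme CER1, of 0.61 ± 0.11. The members that fell were a KCS11 homolog (Ha412HOChr12g0569701, -0.31) and a lipid transfer protein (Ha412HOChr15g0694301, -2.02). The list had 10 members higher and 1 lower at ZT4 (39.3%, against 4.78% of all genes), and 3 higher and 0 lower in the summed fit. At ZT16 0 were called (1.12% of all genes). At ZT20 1 was lower (3.57%, near the 3.16% of all genes). Several of the genes given for this and the following lists were chosen after their values were seen.

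Genes for photosynthesis were lower on day 2. Of 28 members of the light harvesting and photosystem list 17 fell and 0 rose over all times (60.7% called, against 17.4% of all genes, median log2 difference -0.17). In the summed fit 9 fell (32.1%, against 10.2%). At ZT0 and at ZT12 14 members fell (50% each, against 12% and 8.64% of all genes). In the summed fit 9 fell at each of these times (32.1%, against 5.58% and 3.47%). At ZT4 0 were called (4.78% of all genes), and at ZT16 3 rose and 0 fell (10.7%, against 1.12%). Ha412HOChr03g0108001, homolog of the photosystem II antenna protein LHCB6, had 0.535 to 3.545 CPM (median 2.081) at ZT0 of day 2, against 4.06 to 9.6 CPM (median 5.963) on day 1. At ZT12 it had 19.61 to 34.68 CPM (median 30.25) on day 2, against 43.92 to 59.66 CPM (median 52.93) on day 1. The groups did not overlap at ZT0 or ZT12. Its overall value depended on the model, at -0.58 ± 0.11 with 1 day term and at -0.04 ± 0.28 (adjusted p = 0.971, edgeR) as the mean of the day differences of the 12 combinations. Ha412HOChr01g0024701, homolog of the photosystem I subunit PSAE-2, had a log2 difference of -0.89 overall and -1.48 at ZT0. Ha412HOChr01g0026141, homolog of the antenna protein LHCB1.4, had -0.75 at ZT0, -0.90 at ZT12 and 1.05 at ZT16, all called.

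Xylem genes were also lower on day 2 over all times, but not at ZT12. Of 20 members of the xylem and secondary wall list 10 fell and 1 rose (55% called, against 17.4% of all genes, median -0.29). In the summed fit 7 fell and 1 rose. At ZT0 1 rose, at ZT4 1 fell, and at ZT8 1 rose and 3 fell (5%, 5% and 20%, against 12%, 4.78% and 8.10%). At ZT12, ZT16 and ZT20 0 were called (8.64%, 1.12% and 3.16% of all genes). At ZT12 11 of the 20 log2 differences were above 0 (median 0.032), and at the other times 2 to 7 were. Besides the LAC17 homolog above, Ha412HOChr14g0662891, homolog of laccase 11, had 3.308 to 18.81 CPM (median 7.726) over day 2 and 6.093 to 18.92 CPM (median 11.67) over day 1, with a log2 difference of -0.53 ± 0.11 (adjusted p = 0.000133, edgeR). Ha412HOChr14g0633531, homolog of the xylem protease XCP2, had -0.61 and Ha412HOChr01g0042331, homolog of the xylan synthesis gene IRX9, had -0.29, while Ha412HOChr14g0687351, a laccase 12 homolog, rose by 0.79. The phloem list had 1 member higher and 1 lower of 9 (22.2% called, against 17.4% of all genes), and 0 higher and 1 lower in the summed fit.

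The lists were also summed in each library, over the 28, 28, 20 and 9 measured members of the epidermis, light harvesting, xylem and phloem lists. The epidermis and cuticle sum was 4715 to 9682 CPM (median 6916) on day 2 and 3901 to 8553 CPM (median 6549) on day 1. At ZT4 it was 5555 to 7784 CPM (median 6299) on day 2 and 3901 to 5571 CPM (median 4811) on day 1, so that the ranges met only at their ends. The light harvesting sum was 1146 to 4691 CPM (median 2314) on day 2 and 1314 to 5239 CPM (median 2829) on day 1, and at ZT12 it did not overlap, at 2426 to 2737 CPM on day 2 and 3109 to 3559 CPM on day 1. The xylem sum was 188.6 to 391.3 CPM (median 265.7) on day 2 and 224.1 to 441.6 CPM (median 311.4) on day 1, and the phloem sum was 154.3 to 499.9 CPM (median 320.4) on day 2 and 170.5 to 507 CPM (median 286.4) on day 1. Without the 2 smallest libraries the day 2 medians were 6996, 2443, 264.2 and 320.4 CPM for epidermis, light harvesting, xylem and phloem. In such peels more cells of a tissue and more RNA per cell cannot be told apart, and the part of tissue make-up in the gene differences was not tested.

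**Figure D2:**
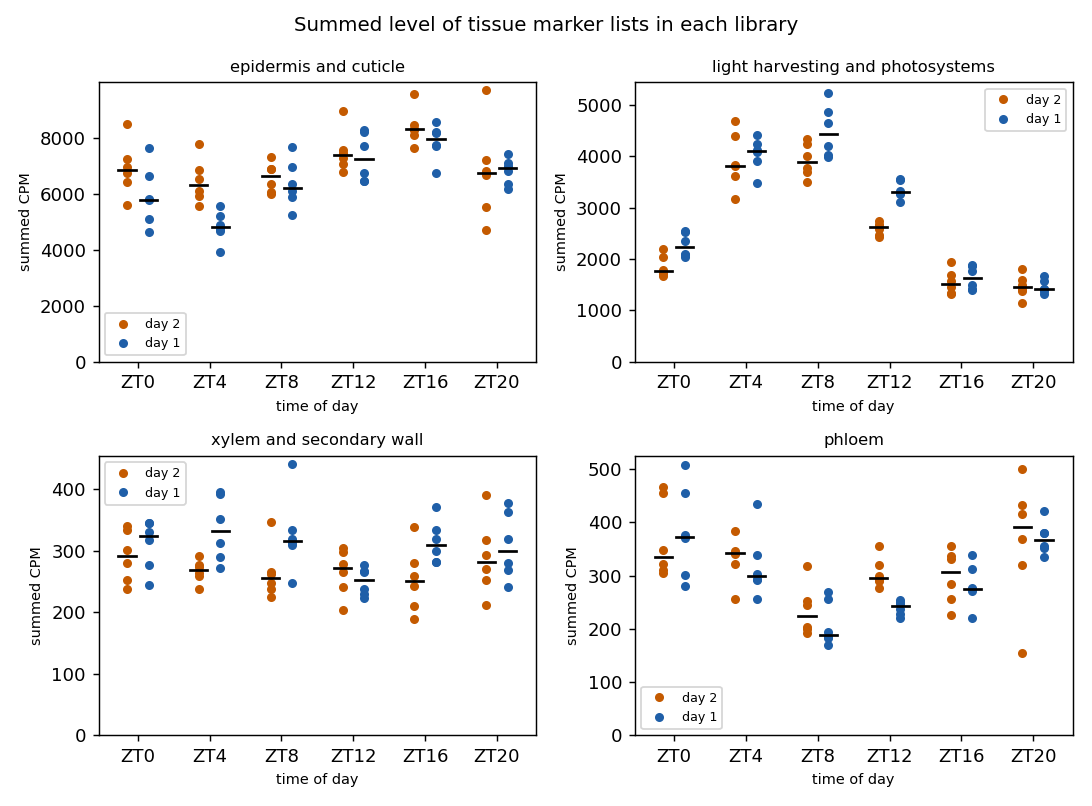
Summed CPM of the measured members of 4 tissue marker lists in each library (points) by time of day, with medians as black bars and linear axes from 0, day 2 in orange left of day 1 in blue. At ZT12 the light harvesting sums are lower and the phloem sums higher on day 2 without overlap, and the other sums of the days overlap. The phloem sum rests mainly on SUC2 homologs, with means of 132.9 CPM (Ha412HOChr04g0163651) and 146.1 CPM (Ha412HOChr02g0068011). Of the 9 phloem genes 0 were called at ZT12, and 4 had log2 differences above 0 (median -0.114).

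Cell division genes were slightly lower. Of 31 measured genes of DNA replication and the cell cycle 9 fell and 0 rose (29% called, against 17.4% of all genes, median -0.09). In the summed fit 5 of 31 fell. Those named were B-type and A-type cyclins, which drive cells into mitosis: Ha412HOChr16g0802841 (CYCB2;3 homolog, -0.20 ± 0.05), Ha412HOChr13g0627281 (CYCB1;4 homolog, -0.19 ± 0.05) and Ha412HOChr17g0811831 (CYCA2;1 homolog, -0.19 ± 0.05). The minichromosome maintenance genes, which license replication, had no member called, for example -0.09 for Ha412HOChr06g0261881 (MCM2 homolog). Of 37 expansins and XTHs, which loosen walls in growing cells, 3 rose and 4 fell (18.9% called, near the share over all genes). At ZT0 7 of them rose and 4 fell (29.7%, against 12% of all genes), and in the summed fit 1 and 1. The test of day by time of day called 40.5% of them (17.2% of all genes), and 2.7% in the summed fit (3.33%). Of 39 auxin response genes 4 were called (10.3%), 1 higher and 3 lower. The day by time test called 30.8% of these, and 5.13% in the summed fit.

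Of the heat shock genes that passed the test most were lower on day 2. Of 41 measured heat shock genes, chaperones and their regulators, 11 fell and 2 rose (31.7% called, against 17.4% of all genes, median -0.04). In the summed fit 6 fell and 1 rose. Ha412HOChr13g0624051, homolog of the chaperone HSP70, had 19.62 to 27 CPM (median 23.28) at ZT8 of day 2, against 28.86 to 35.29 CPM (median 32.37) on day 1, with no overlap. Its overall log2 difference was -0.26 ± 0.04 (adjusted p = 6.75e-06, edgeR). Ha412HOChr01g0003921, homolog of the heat shock factor HSFA6B, had 23.65 to 32.45 CPM (median 28.25) at ZT4 of day 2, against 31.65 to 48.01 CPM (median 46.36) on day 1, where the ranges overlapped, and -0.49 ± 0.08 overall. Small heat shock proteins similar to AT2G29500, encoded by neighbouring genes on chromosome 1 that may share reads, fell in 5 of 7 cases, from -0.22 for Ha412HOChr01g0017491 to -0.43 for Ha412HOChr01g0017591.

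Early light-induced proteins are chlorophyll-binding proteins that accumulate under bright light. Over all times 0 of their 8 genes were called (17.4% of all genes). At ZT4 6 rose (75%, where 4.78% of all genes were called), and 1 of 8 in the summed fit. At ZT12 2 fell (25%, against 8.64%), and 1 in the summed fit. At ZT0, 0 passed the test (12% of all genes did) and 0 of the 8 log2 differences were above 0 (median -0.256). Ha412HOChr03g0133761, an ELIP2 homolog, had 132.6 to 217.4 CPM (median 184.5) at ZT4 of day 2, against 79.51 to 129.9 CPM (median 103.4) on day 1, with no overlap, and a log2 difference of 0.81 ± 0.18 (adjusted p = 0.00318, edgeR). The 8 genes are neighbours on chromosome 3, so reads could be divided between them, and they are not 8 independent observations.

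Genes for anthocyanin pigments were higher at ZT8. Of 18 measured flavonoid pathway genes 7 rose and 0 fell at ZT8 (38.9%, against 8.10% of all genes), and 4 rose in the summed fit. At ZT20 1 rose and 5 fell (33.3%, against 3.16%), and 0 were called in the summed fit. Without the 2 smallest libraries, 8 rose at ZT8, and 0 rose and 2 fell at ZT20. Ha412HOChr14g0662951, homolog of dihydroflavonol 4-reductase (DFR), which commits the pathway to anthocyanins, had 45.45 to 111.6 CPM (median 84.05) at ZT8 of day 2, against 8.207 to 35.26 CPM (median 20.24) on day 1. The groups did not overlap and the log2 difference was 1.97 ± 0.27 (adjusted p = 1.4e-06, edgeR). The next enzyme, Ha412HOChr03g0122681 (LDOX homolog), rose by 1.56 at ZT8, a chalcone synthase, Ha412HOChr15g0726661, which starts the pathway, by 1.70, and a glycosyltransferase, Ha412HOChr08g0360391 (UGT78D2 homolog), by 1.12. Flavonol synthase, Ha412HOChr09g0401551 (FLS1 homolog), which makes colourless flavonols, had -0.30 at ZT8 and did not pass the test there. The ZT20 members that fell were homologs of PAL1, the entry enzyme of phenylpropanoids, for example Ha412HOChr07g0311081 at -1.01.

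Defense genes, mostly WRKY transcription factors, chitinases and thaumatin-like proteins, leaned higher over all times, but not at ZT20. Of 47 measured, 13 rose and 1 fell over all times (29.8% called, against 17.4% of all genes, median 0.19). In the summed fit 7 rose and 1 fell. At ZT16 0 were called (1.12% of all genes). At ZT20 2 rose and 1 fell (6.38%, against 3.16%), and 15 of the 47 log2 differences were above 0 (median -0.183). Ha412HOChr16g0758001, homolog of WRKY6, had 24.58 to 37.56 CPM (median 28.88) at ZT0 of day 2, against 17.93 to 24.63 CPM (median 19.81) on day 1, where the ranges overlapped slightly, and 0.35 ± 0.06 overall (adjusted p = 2.33e-06, edgeR). Ha412HOChr08g0355321, homolog of WRKY33, a regulator of responses to fungi, had 11.75 to 19.25 CPM (median 14.8) at ZT8 of day 2 and 5.782 to 10.68 CPM (median 7.631) on day 1, without overlap. The chitinase Ha412HOChr09g0429331 (PR3 homolog) had a log2 difference of 2.27 at ZT0.

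Of 15 jasmonate genes, which make or sense this wound hormone, 4 rose at ZT0 (26.7%, against 12% of all genes) and 2 fell at ZT20 (13.3%, against 3.16%). The summed fit called 1 and 0 of them, and without the 2 smallest libraries 1 fell at ZT20. Over all times 2 of the 15 were called (13.3%, against 17.4% of all genes), and 0 in the summed fit. Ha412HOChr04g0189321, homolog of JAR1, which activates the hormone by joining it to isoleucine, had 21.87 to 29.35 CPM (median 24.84) at ZT0 of day 2, against 10.46 to 13.67 CPM (median 10.87) on day 1. The groups did not overlap, and the log2 difference was 1.12 ± 0.14 (adjusted p = 3e-07, edgeR). The allene oxide cyclase homolog Ha412HOChr11g0483091 had -2.64 at ZT20 and 0.87 at ZT0, the first of which was called.

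Of 17 measured nitrate genes (9 more were too low to test) 5 rose and 2 fell over all times (41.2% called, against 17.4% of all genes). In the summed fit 4 rose and 1 fell. Ha412HOChr02g0077881, homolog of the nitrate transporter and sensor NRT1.1, had 24.15 to 75.73 CPM (median 48.64) over day 2 and 19.42 to 60.92 CPM (median 39.1) over day 1, with a log2 difference of 0.31 ± 0.05 (adjusted p = 2.84e-06, edgeR). Ha412HOChr12g0579771, homolog of NRT2.5, a transporter induced in Arabidopsis under nitrogen starvation, had 2.78 at ZT0, 2.04 at ZT8 and 1.14 overall. Ha412HOChr16g0763171, homolog of nitrite reductase, had 21.9 to 36.79 CPM (median 32.48) at ZT12 of day 2, against 47.97 to 70.62 CPM (median 58.4) on day 1, without overlap, and its log2 difference there was -0.92 ± 0.11 (adjusted p = 4.89e-08, edgeR). At ZT0 the ranges of this gene overlapped almost fully. A second nitrite reductase homolog, Ha412HOChr04g0199521, had -0.18 ± 0.07 overall (adjusted p = 0.0474, edgeR), which did not hold in the summed fit (adjusted p = 0.237).

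Other lists had smaller called shares over all times than all genes (17.4%). Phytochrome A (Ha412HOChr04g0169231), the far-red light receptor, had 25.83 to 51.7 CPM (median 37.91) over day 2 and 32.39 to 75.19 CPM (median 47.2) over day 1. Its log2 difference was -0.33 ± 0.04 (adjusted p = 2.1e-08, edgeR). The light signaling list that holds it had 1 member higher and 2 lower of 36 (8.33%). Of 29 drought and abscisic acid genes 3 rose and 1 fell (13.8%, and 0 called in the summed fit). At ZT8 6 of the 29 rose and 1 fell (24.1%, against 8.10% of all genes, and 2 and 0 in the summed fit). Of 12 glutathione transferases 1 rose and 1 fell (16.7%), and of 11 sugar status genes 1 rose (9.09%). Of 22 ethylene and AP2/ERF genes 1 rose and 1 fell (9.09%). At ZT20 3 sugar status genes fell (27.3%, against 3.16% of all genes), 0 in the summed fit and 1 without the 2 smallest libraries. The test of day by time of day called 17.2% of all genes, and 3.33% in the summed fit. It called 54.5% of sugar status, 41.4% of drought, 36.1% of light signaling, 33.3% of glutathione transferase and 9.09% of ethylene genes. In the summed fit these shares were 9.09%, 13.8%, 8.33%, 16.7% and 0%. Of 212 ribosomal protein genes 2 rose and 3 fell over all times (2.36% called). At ZT12 0 rose and 13 fell (6.13%, against 8.64% of all genes). The test of day by time of day was passed by 33 (15.6%). Their signs leaned together by time, with 19 of the 212 log2 differences above 0 at ZT12 and 193 at ZT16, where 0 passed the test. Over all 34315 genes 16553 were above 0 at ZT12 and 16823 at ZT16. The 212 genes were measured in the same libraries and are not independent observations.

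The number of genes that differed varied with the time of day. At ZT0 4133 genes were called (12%), 1959 higher (5.71%) and 2174 lower (6.34%). This balance turned with the libraries and the scaling: without the 2 smallest libraries 3307 were called at ZT0, 1877 higher and 1430 lower, without the west ZT20 library alone 2300 were higher and 1905 lower, and with RLE scaling 2053 were higher and 1906 lower. At ZT4 1641 genes were called (4.78%), 899 higher (2.62%) and 742 lower (2.16%), and at ZT8 2781 (8.10%), 1485 higher (4.33%) and 1296 lower (3.78%). At ZT12 2966 genes were called (8.64%), 1388 higher (4.04%) and 1578 lower (4.60%). The night had fewer, with 384 at ZT16 (1.12%), 125 higher (0.364%) and 259 lower (0.755%), and 1086 at ZT20 (3.16%), 533 higher (1.55%) and 553 lower (1.61%). The summed fit called 1916, 510, 971, 1192, 60 and 110 genes at ZT0 to ZT20 (5.58%, 1.49%, 2.83%, 3.47%, 0.175% and 0.321%). Large changes leaned one way at some times: of the genes at least 2-fold apart, 748 were higher and 98 lower at ZT0 (2.47% of genes), 161 and 86 at ZT4 (0.720%), 434 and 115 at ZT8 (1.60%), 158 and 148 at ZT12 (0.892%), 24 and 43 at ZT16 (0.195%), and 55 and 154 at ZT20 (0.609%). The ZT20 count rests in part on the library that stood apart: without it 557 genes were called, and a model of the 12 ZT20 libraries alone called 41. In all 9210 genes were called at 1 or more times, 6426 of them at 1 time, and 504 of the 2784 called at 2 or more times changed in both directions.

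**Figure D3:**
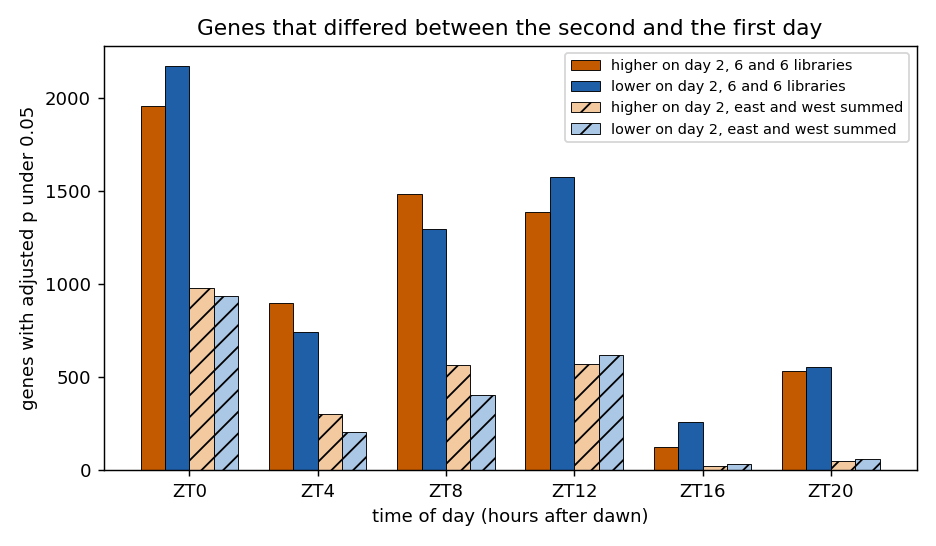
Number of genes with an adjusted p under 0.05 at each time of day (bars from 0), with higher on day 2 in orange and lower in blue. Solid bars are the fit of 6 libraries of day 2 and 6 of day 1, and hatched bars the fit with west and east counts summed, which called fewer genes at every time and fewest at ZT16.

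At ZT0, dawn, 883 called genes were higher and 627 lower with no overlap between the days (4.40% of genes). Here and at the later times, the genes named are the 2 largest called changes per direction without overlap. They were taken from genes with a homolog and a mean of at least 10 CPM. Ha412HOChr01g0010411, a peroxidase of the cell wall family (AT5G05340 homolog), had 19.69 to 56.32 CPM (median 39.16) on day 2, against 0.9429 to 15.33 CPM (median 4.109) on day 1, a log2 difference of 2.64 ± 0.61 (adjusted p = 0.00237, edgeR). Ha412HOChr05g0240831, a GDSL lipase (AT5G55050 homolog), had 26 to 43.87 CPM (median 32.05) on day 2, against 2.581 to 16.27 CPM (median 3.942) on day 1, and 2.63 ± 0.52. Both genes were variable, and at ZT12 to ZT20 neither passed the test. The decreases named were smaller. Ha412HOChr07g0303531, homolog of phospholipase D delta, which makes the signal lipid phosphatidic acid, had 6.678 to 12.86 CPM (median 10.19) on day 2 and 15.94 to 29.57 CPM (median 16.53) on day 1 (-1 ± 0.20). Ha412HOChr01g0043781, an ankyrin repeat protein, had 22.58 to 30.95 CPM on day 2 and 33.06 to 60.02 CPM on day 1 (-0.84 ± 0.18).

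At ZT4, 419 genes were higher and 334 lower without overlap (2.19%). Ha412HOChr08g0359241, homolog of the cytochrome P450 CYP82C4, which hydroxylates the coumarin fraxetin in Arabidopsis roots, had 27.08 to 55.53 CPM (median 33.04) on day 2, against 5.651 to 11.3 CPM (median 8.657) on day 1, a log2 difference of 2.12 ± 0.33 (adjusted p = 2.92e-05, edgeR). Its groups did not overlap at ZT0 or ZT8 either, and at ZT12 to ZT20 they overlapped, with log2 differences of -0.39 to 0.25. The peroxidase Ha412HOChr01g0010411 had a log2 difference of 2.01 ± 0.60, which did not hold in the summed fit (adjusted p = 0.197). The decreases named were those of the RNS2 homolog given above and of Ha412HOChr17g0807231, homolog of the zinc finger protein LOL1, a regulator of cell death. The LOL1 homolog had 8.45 to 13.15 CPM (median 10.47) on day 2 and 16.22 to 29.28 CPM (median 27.18) on day 1 (-1.23 ± 0.16).

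At ZT8, 500 genes were higher and 473 lower without overlap (2.84%). Besides the DFR homolog, Ha412HOChr11g0485391, whose homolog AT3G16150 is an asparaginase that releases ammonium from asparagine, had 160.3 to 329.3 CPM (median 233.4) on day 2, against 48.65 to 96.51 CPM (median 60.62) on day 1, a log2 difference of 1.92 ± 0.31 (adjusted p = 3.01e-05, edgeR). At ZT12 it had 134.4 to 392.7 CPM (median 274.7) on day 2 and 63.64 to 121.8 CPM (median 93.52) on day 1, again without overlap. Ha412HOChr01g0011151, homolog of Rubisco activase, which keeps the carbon-fixing enzyme Rubisco active, had 2.694 to 9.354 CPM (median 4.917) on day 2, against 11.3 to 35.2 CPM (median 23.87) on day 1 (-2.08 ± 0.27), and Ha412HOChr05g0208331, an ATPase of the AAA type, had 3.72 to 6.868 CPM on day 2 and 14.48 to 23.39 CPM on day 1 (-1.72 ± 0.25).

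At ZT12, 497 genes were higher and 576 lower without overlap (3.13%). Ha412HOChr15g0706581, homolog of the transcription factor WRKY3, had 19.26 to 38.64 CPM (median 29.41) on day 2, against 8.813 to 14.5 CPM (median 11.7) on day 1 (1.30 ± 0.24, adjusted p = 0.000195, edgeR). A pair of aquaporin genes on chromosome 7, both PIP2;4 homologs, were lower. Ha412HOChr07g0311621 had 5.04 to 14.95 CPM (median 7.9) on day 2 and 16.24 to 29.82 CPM (median 26.41) on day 1 (-1.47 ± 0.29). Ha412HOChr07g0311431 had 4.514 to 21.1 CPM (median 12.63) on day 2 and 24.62 to 40.45 CPM (median 29.27) on day 1 (-1.26 ± 0.29, adjusted p = 0.00252, edgeR, and 0.0544 in the summed fit). At ZT4, near their daily peak, both genes had overlapping ranges, with log2 differences of 0.12 and 0.02, and as near copies they may share reads.

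At ZT16 the fewest genes differed, with 48 genes higher and 93 lower without overlap (0.411%). Ha412HOChr10g0465281, homolog of CID9, which binds poly(A)-binding protein, had 44.41 to 85.28 CPM (median 72.47) on day 2 and 28.11 to 40.53 CPM (median 34.89) on day 1 (0.94 ± 0.24, adjusted p = 0.0299, edgeR, and 0.0586 in the summed fit). The other increase named was that of the clock gene PRR5-like, described with the clock. Ha412HOChr03g0092721, homolog of the calcium pump ECA2, had 4.231 to 9.549 CPM (median 6.419) on day 2 and 9.748 to 17.35 CPM (median 14.95) on day 1 (-1.10 ± 0.28), and Ha412HOChr11g0481451, of unknown function, had 14.53 to 25.57 CPM on day 2 and 26.68 to 42.58 CPM on day 1 (-0.80 ± 0.19). Neither decrease held in the summed fit (adjusted p = 0.291 and 0.184).

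At ZT20, 89 genes were higher and 146 lower without overlap (0.685%). Ha412HOChr11g0511461, a major facilitator transporter, had 51.7 to 74.47 CPM (median 65.59) on day 2 and 30.65 to 43.58 CPM (median 40.2) on day 1 (0.72 ± 0.10, adjusted p = 4.35e-05, edgeR). Ha412HOChr11g0498121, homolog of metacaspase MC1, a protease that promotes cell death, had 66.02 to 100.8 CPM on day 2 and 45.9 to 63.65 CPM on day 1 (0.76 ± 0.19, adjusted p = 0.141 in the summed fit). Ha412HOChr12g0534311, a bHLH transcription factor, was lower at ZT20, at 7.969 to 16.13 CPM (median 12.12) on day 2 and 31.14 to 92.43 CPM (median 46.58) on day 1 (-2.06 ± 0.44, adjusted p = 0.106 in the summed fit). The same gene was higher at ZT0, at 18.24 to 47.23 CPM on day 2 and 6.091 to 9.547 CPM on day 1, also without overlap. The aquaporin gene Ha412HOChr07g0311431 was lower again (-1.46 ± 0.32, adjusted p = 0.138 in the summed fit).

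The day difference depended on the time of day for 5900 genes (17.2%, test of 5 contrasts between the times, edgeR), and for 1142 in the summed fit. The 3 genes with the smallest p, among those with a homolog and a mean of at least 10 CPM, were homologs of ORG1, LOL1 and GSTF6. The ORG1 homolog, Ha412HOChr09g0388631 (adjusted p = 3.63e-14), had 20.7 to 22.91 CPM (median 21.27) at ZT8 of day 2, against 51.17 to 71.47 CPM (median 60.38) on day 1. At ZT0 it was instead higher, at 11.13 to 14.78 CPM on day 2 and 9.255 to 11.07 CPM on day 1, and neither time overlapped. The LOL1 homolog Ha412HOChr17g0807231 (adjusted p = 1.61e-08) was lower from ZT4 to ZT12, and at ZT20 it was higher, with 12.12 to 24.31 CPM on day 2 and 11.58 to 15.12 CPM on day 1. Ha412HOChr01g0001901, homolog of the glutathione transferase GSTF6 (adjusted p = 3.72e-08), differed at ZT12, with 26.6 to 35.36 CPM (median 28.99) on day 2 and 46.92 to 71.23 CPM (median 63.56) on day 1, and at its ZT8 peak had 452.2 to 543.4 CPM on day 2 and 446 to 514.9 CPM on day 1.

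**Figure D4:**
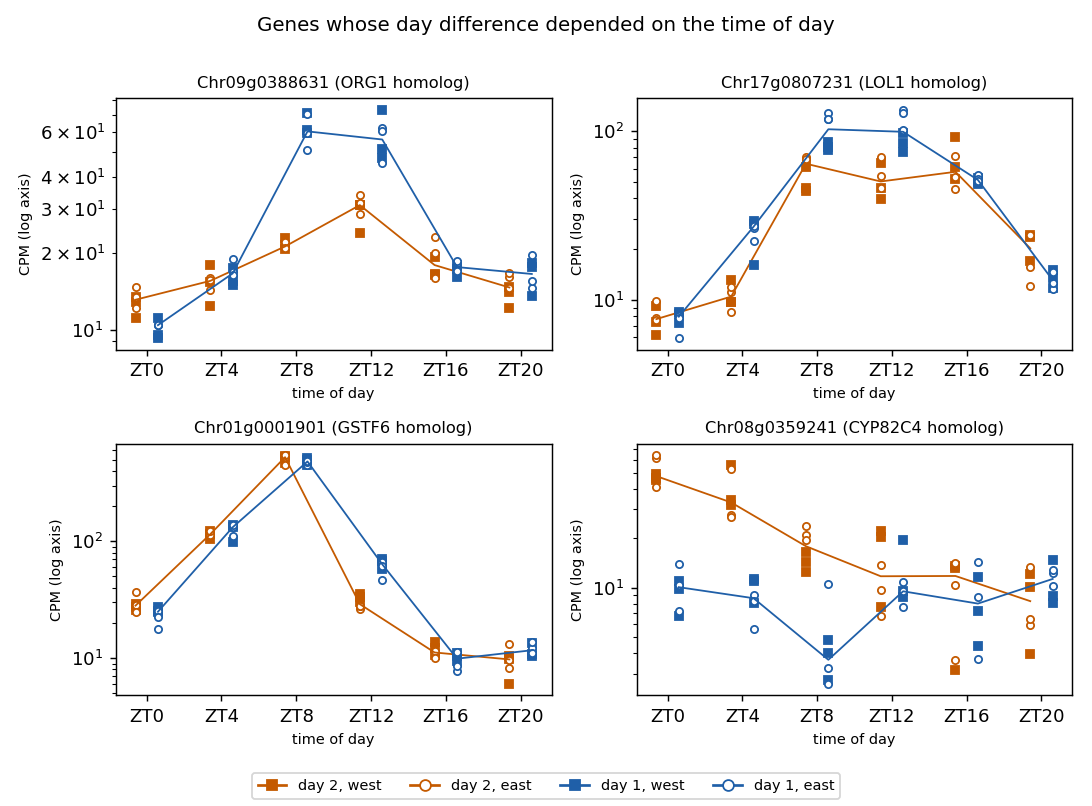
CPM (log axes) by time of day of the 3 genes with the smallest p of the day by time test and of the CYP82C4 homolog, with 1 point per library (squares west, circles east) and lines through the medians, day 2 in orange left of day 1 in blue. The ORG1 and LOL1 homologs are lower on day 2 at ZT8 and ZT12, the GSTF6 homolog at ZT12, and the CYP82C4 homolog is higher from ZT0 to ZT8.

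Day differences at separate times were also set against each other across the 16711 genes that averaged 10 CPM or more. Between neighbouring times they correlated at 0.484 (ZT0 and ZT4), 0.511 (ZT4 and ZT8), 0.435 (ZT8 and ZT12), 0.1 (ZT12 and ZT16) and -0.082 (ZT16 and ZT20). The highest value was 0.571, between ZT0 and ZT8, and the lowest -0.157, between ZT0 and ZT20. These values describe genes, which are not independent replicates, and the times use separate libraries.

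A difference between the day effects of the west and east sides was not detectable for any gene in the edgeR fit: 0 of 34315 genes passed (0%), with 1157 at an unadjusted p under 0.05 and 3 by DESeq2. That fit treats west and east libraries as separate samples. With libraries of the same day, time and number paired as 1 plant pool, 0 passed as well, with 1779 at an unadjusted p under 0.05. The smallest adjusted p of the unpaired fit was 0.379. Among genes with a homolog that averaged 10 CPM or more, the 3 with the smallest p had west minus east day differences of -0.24 ± 0.07 (Ha412HOChr01g0035511), 0.25 ± 0.07 (Ha412HOChr08g0332921) and -0.28 ± 0.08 (Ha412HOChr04g0166951). Each had an adjusted p of 1 in the unpaired fit, and none passed in the paired one.

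Peak times of clock genes differed little between the days. Acrophases, the times of peak of a fitted 24-hour cosine, differed between the days by -0.48 to 0.37 h in the 14 clock genes, for example 1.46 h on day 2 and 1.29 h on day 1 for LHY-like (Ha412HOChr15g0736201), the dawn repressor, and 12.75 h on day 2 and 12.74 h on day 1 for PRR5-like (Ha412HOChr08g0350221), an evening repressor. Levels of some evening genes were higher on day 2: of the 14 genes 3 rose and 2 fell at ZT12, 4 rose at ZT16 and 2 fell at ZT20, with 3 higher and 2 lower overall (35.7% called, against 17.4% of all genes). Called were thus 35.7% at ZT12, 28.6% at ZT16 and 14.3% at ZT20, against 8.64%, 1.12% and 3.16% of all genes. At ZT0, ZT4 and ZT8 0 of the 14 were called, against 12%, 4.78% and 8.10% of all genes. In the summed fit 2 rose and 2 fell at ZT12, 3 rose at ZT16, 1 fell at ZT20, and 3 rose and 0 fell overall.

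PRR5-like (Ha412HOChr08g0350221) had 185.9 to 213.6 CPM (median 195.5) at ZT12 of day 2, against 132.8 to 145.2 CPM (median 138.2) on day 1 (0.51 ± 0.13), and at ZT16 18.69 to 30.59 CPM on day 2 and 8.143 to 16.92 CPM on day 1 (0.94 ± 0.14, adjusted p = 2.9e-05, edgeR). TOC1-like (Ha412HOChr02g0065721), which represses the dawn genes, had 37.16 to 46.1 CPM (median 42.03) at ZT12 of day 2, against 27.66 to 28.66 CPM (median 28.37) on day 1, and LUX-like (Ha412HOChr08g0371471), of the evening complex, had 42.28 to 53.97 CPM (median 48.48) on day 2 and 27.28 to 36.18 CPM (median 32.34) on day 1. None of these overlapped. LHY-like (Ha412HOChr15g0736201) was lower at ZT20, at 32.36 to 55.1 CPM (median 38.94) on day 2 and 59.7 to 85.31 CPM (median 68.45) on day 1 (-0.73 ± 0.13, adjusted p = 0.000606, edgeR). Its overall difference (-0.26 ± 0.08) and that of RVE8-like (Ha412HOChr07g0311811, -0.21 ± 0.06) did not hold in the summed fit, with adjusted p of 0.0538 and 0.0502.

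**Figure D5:**
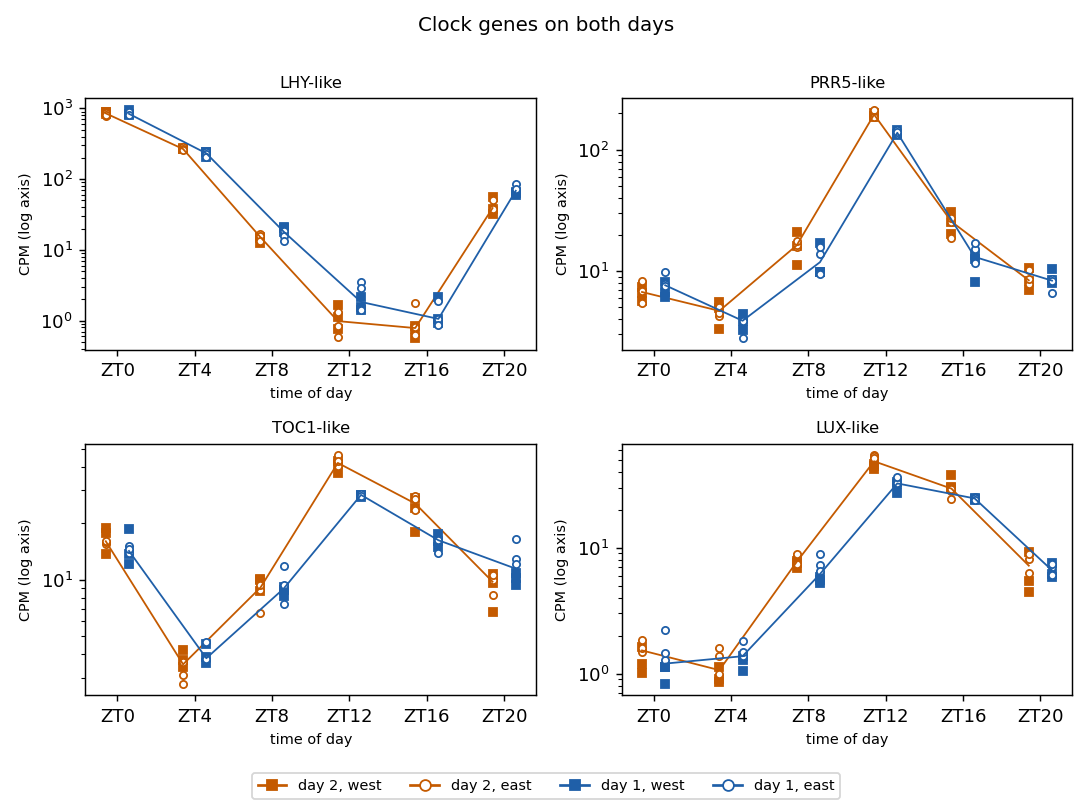
CPM (log axes) of 4 clock genes by time of day, with 1 point per library (squares west, circles east) and lines through the medians, day 2 in orange left of day 1 in blue. The peaks fall at the same sampled times on both days, and the PRR5-like, TOC1-like and LUX-like genes are higher at ZT12 of day 2.

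Rhythms of all genes were compared in the same way, as a description. The F test of a 24-hour cosine treated west and east libraries as separate samples. Totals were lower and the spread wider on day 2, and their part in the counts that follow was not tested. The cosine passed this test (adjusted p under 0.05) for 23272 genes on day 2 and 26790 on day 1, and for 21172 on both. Among these the acrophase of day 2 minus that of day 1 had a median of -0.097 h and a median size of 0.737 h, and 1173 genes (5.54%) moved by more than 3 h. Amplitudes differed by more than 2-fold for 564 genes, 333 higher and 231 lower on day 2, with a median log2 ratio of 0.007. The study's reference genes for qPCR were level between the days, with 30.29 to 42.93 CPM on day 2 and 28.58 to 42.73 CPM on day 1 for Ha412HOChr06g0274091 (log2 difference -0.001 ± 0.029), and 639.1 to 1456 CPM on day 2 and 690 to 1455 CPM on day 1 for Ha412HOChr11g0495951 (-0.005 ± 0.043).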

How the data were processed

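The authors quantified 50-base single-end reads with Salmon 1.4.0 against a transcriptome made with gffread (Cufflinks 2.2.1) from the Ha412HOv2.0 genome, and deposited estimated counts per gene, not normalised. These estimated counts were rounded to whole numbers. A gene was kept when 3 or more libraries had 10 or more counts of it (34315 of 46480 genes). Day 2 and day 1 were compared with edgeR 4.0.16 in R 4.3.3 (TMM normalisation, quasi-likelihood F test, Benjamini-Hochberg adjusted p under 0.05). Overall values came from a model of side by time (12 levels) plus day, values at each time from a model of 24 groups. The SE was the fold change divided by the square root of F. CPM were TMM-normalised.

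The members and gene lists were chosen with earlier results of these data known. Named genes were, among those with an Arabidopsis homolog in the study's tables (10485 IDs, tables shortened), the 10 largest changes per direction overall with 1 sign in all 12 combinations, the 2 largest per direction and time without overlap, the 3 smallest p of each interaction (all with a mean of at least 10 CPM, over the 12 libraries of that time for genes named at a time and over all 72 otherwise, which a gene can pass through the day on which it is high), all clock and reference genes, up to 3 members of each other list, and the largest change regardless of a homolog. Further list members were chosen after their values were seen. Alternatives were DESeq2 1.42.0, RLE scaling, no filter, thinned counts, replicate block, summed or paired sides, single sides, times or libraries left out. The code was tested on simulated data.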

Additional observations from a re-analysis of the deposited data

Results flagged for a closer look

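Of 60 groups of 6 libraries examined, 4 had a library far from the others, where chance gives about 1 in 20. The gap of the farthest library over the range of its group was 0.647 for the library totals of day 2 at ZT8 (west library 2, 22637992 counts, the lowest being 8381310). It was 0.871 for the GDSL lipase gene Ha412HOChr05g0240831 at ZT0 of day 1 (east library 3, 16.27 CPM), 0.63 for the asparaginase homolog Ha412HOChr11g0485391 at ZT8 of day 1 (west library 3, 96.51 CPM) and 0.634 for the metacaspase homolog Ha412HOChr11g0498121 at ZT20 of day 1 (west library 2, 63.65 CPM). In each of these 3 genes the far library was the day 1 library nearest to day 2.

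The day difference itself differed between times of day for 5900 genes (edgeR, test of 5 contrasts). Among the named genes the adjusted p of this test was lowest for the homologs of ORG1 (Ha412HOChr09g0388631, 3.63e-14), LOL1 (Ha412HOChr17g0807231, 1.61e-08) and GSTF6 (Ha412HOChr01g0001901, 3.72e-08). Of the genes named for dawn and morning, it was 1.03e-05 for the CYP82C4 homolog (Ha412HOChr08g0359241), 0.000258 for the ankyrin repeat gene (Ha412HOChr01g0043781), 0.000309 for phospholipase D delta (Ha412HOChr07g0303531), 0.00402 for the GDSL lipase (Ha412HOChr05g0240831) and 0.00861 for the peroxidase (Ha412HOChr01g0010411). Of those named for ZT8 and ZT12, it was 3.96e-05 for WRKY3 (Ha412HOChr15g0706581), 0.000303 for DFR (Ha412HOChr14g0662951), 0.0025 for the ATPase (Ha412HOChr05g0208331), 0.00335 for the asparaginase (Ha412HOChr11g0485391), 0.00356 for Rubisco activase (Ha412HOChr01g0011151), and 0.00361 and 0.0119 for the aquaporins (Ha412HOChr07g0311431 and Ha412HOChr07g0311621). Of those named for the night, it was 0.00013 for the bHLH gene (Ha412HOChr12g0534311), 0.000268 for Ha412HOChr11g0481451, 0.000847 for the metacaspase (Ha412HOChr11g0498121), 0.00104 for PRR5-like (Ha412HOChr08g0350221), 0.0014 for CID9 (Ha412HOChr10g0465281) and 0.00631 for the transporter (Ha412HOChr11g0511461). Apart from the first 3, these genes were named for their difference at 1 time of day, so the test is not independent of that choice.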

How the results depend on the processing

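Without the libraries of 1 number, the fits called 3364 to 3808 genes over all times, 1594 to 2230 at ZT0, 383 to 761 at ZT4, 841 to 1447 at ZT8, 723 to 2744 at ZT12, 41 to 348 at ZT16, 158 to 1149 at ZT20, 1206 to 3386 for day by time and 0 to 1 for day by side. With west and east summed, 3505, 1916, 510, 971, 1192, 60 and 110 genes were called overall and at ZT0 to ZT20, and 1142 for day by time. With all libraries thinned to the smallest total, 2491, 875, 1497, 1784, 158 and 643 were called at ZT0 to ZT20 and 3330 for day by time. DESeq2 called 647 genes at ZT16 and 3 for day by side; pairing the sides, chosen after seeing the data, called 0. East libraries alone gave 2507 genes over all times and west alone 1432, leaving out 1 time gave 3904 (ZT8) to 7887 (ZT20), and the average of 24 groups gave 6644. At ZT20, 557 were called without the west library that stood apart, 551 without both smallest libraries and 41 from the 12 libraries alone, which gave 239 at ZT16. The median share of variance of the day term was 0.9077% over genes with at least 10 CPM. Most of these fits use fewer libraries or counts; beyond that the cause of the shifts was not tested. Of 2171 values of named genes under the alternatives, 1969 kept direction and call, 179 lost the call, 23 gained it and 0 reversed.

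The replicate numbers do not pair the days: same-numbered libraries of day 2 and day 1 correlated at -0.201 to 0.173 (median 0.022, 5 of 36 pairs above 0.1). With the replicate number as a block, 6067 genes were called over all times, 4254, 1783, 2921, 3129, 426 and 1279 at ZT0 to ZT20, 6396 for day by time and 0 for day by side. Lower totals on day 2 and 3 plant pools per side limit what can be seen in genes of low level.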
